A study of Mus musculus with 4 samples.

Results

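The genes described here are 35 members of glycolysis and of the hypoxia response, chosen by gene symbol among the 27745 gene names with a probe on the array, and each was read from its brightest probe. They comprise 16 glycolytic enzymes, 4 genes of glucose and lactate transport and flux control (Slc2a1, Slc16a3, Pfkfb3 and Pdk1), 12 other targets of hypoxia-inducible factor (HIF) and 3 subunits of oxygen-sensing transcription factors (Hif1a, Epas1 and Arnt). All 35 were on the array, 34 under a current symbol and 1, Pkm2, under an older name of Pkm.

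The samples were mouse embryonic fibroblasts (MEFs) of the C57BL/6J strain, labelled Lats2+/+ (WT) or Lats2-/- (KO); Lats2 is a kinase of the Hippo pathway, which responds to cell contact. Within each genotype, RNA of a low density culture, taken after 48 hours while subconfluent, was set against RNA of a high density culture, taken after 3 to 5 days, on 2-colour whole mouse genome arrays. Each genotype had 2 arrays with exchanged dyes, which gave 4 arrays and 8 channels. All cultures were grown in DMEM with inactivated fetal bovine serum, penicillin and streptomycin at 37 °C and 5% CO2, and no other agent is named. Whether both arrays of a genotype used the same RNA extracts is not given in the sources used here. They were taken as a technical repeat, with 1 sample for each genotype and density, and the sources used here do not state for these 4 arrays how many embryos or lines the cells came from. No test of a density or genotype effect was therefore possible, and the error given with each value is the spread over the 2 arrays or dyes. Density and time in culture cannot be told apart in this design.

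Glycolysis splits glucose to pyruvate in the cytosol. Hexokinase, phosphofructokinase and pyruvate kinase catalyse its essentially irreversible steps, and lactate dehydrogenase regenerates the NAD+ that the pathway needs. HIF is a dimer of an oxygen-labile alpha subunit (Hif1a or Epas1) and Arnt, and it binds a short core in hypoxia response elements near many glycolytic genes and near genes of angiogenesis, mitophagy, collagen hydroxylation and growth control. Prolyl hydroxylases of the Egln family mark the alpha subunits for destruction when oxygen is present, so HIF activity is set mostly at the protein level, and mRNA of Hif1a does not report it.

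To show what the members share in sequence, the promoter windows of RefSeq (GRCm38.p6, 300 bases that span each transcription start) were searched for the core ACGTG or GCGTG on both strands. A palindromic CACGTG carries the core on both strands and was counted on each. A core was present in 43.8% of all 32851 windows and in 38 of the 47 windows of the members, which came from 33 genes, while Ndrg1 and Epas1 had no entry. It was found in 20 of 27 windows of glycolytic enzymes and in 11 of 12 windows of other HIF targets. The windows below belong to members that rose with density in the labelled WT (Pdk1, Bnip3 and Ddit4) or fell (Hk2 and Slc2a1), and capitals mark the cores as read on the printed strand, so that CACGT and CACGC are cores of the opposite strand. For Pdk1, which had 2 windows, the one with more cores is given.
Pdk1: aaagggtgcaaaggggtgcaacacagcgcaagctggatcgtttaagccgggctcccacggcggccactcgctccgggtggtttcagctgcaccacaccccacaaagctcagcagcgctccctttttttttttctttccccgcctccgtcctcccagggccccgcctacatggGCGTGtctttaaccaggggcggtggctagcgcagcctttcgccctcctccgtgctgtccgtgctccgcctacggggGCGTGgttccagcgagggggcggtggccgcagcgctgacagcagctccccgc
Bnip3: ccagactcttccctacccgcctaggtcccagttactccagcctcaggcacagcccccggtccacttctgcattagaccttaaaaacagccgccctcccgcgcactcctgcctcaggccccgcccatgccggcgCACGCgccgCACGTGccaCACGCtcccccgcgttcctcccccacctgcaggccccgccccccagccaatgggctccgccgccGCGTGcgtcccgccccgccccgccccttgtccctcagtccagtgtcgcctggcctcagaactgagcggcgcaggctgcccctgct
Ddit4: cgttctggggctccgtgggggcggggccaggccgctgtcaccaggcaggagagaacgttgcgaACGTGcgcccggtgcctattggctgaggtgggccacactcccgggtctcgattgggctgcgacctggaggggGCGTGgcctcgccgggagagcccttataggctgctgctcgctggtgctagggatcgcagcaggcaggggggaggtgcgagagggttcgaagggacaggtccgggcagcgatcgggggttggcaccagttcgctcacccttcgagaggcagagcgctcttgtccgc
Hk2: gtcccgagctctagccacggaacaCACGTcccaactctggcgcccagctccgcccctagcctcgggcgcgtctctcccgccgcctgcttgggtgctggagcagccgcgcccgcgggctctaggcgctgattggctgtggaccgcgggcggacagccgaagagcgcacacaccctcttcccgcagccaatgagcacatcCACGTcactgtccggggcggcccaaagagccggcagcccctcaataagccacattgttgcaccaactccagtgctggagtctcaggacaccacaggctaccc
Slc2a1: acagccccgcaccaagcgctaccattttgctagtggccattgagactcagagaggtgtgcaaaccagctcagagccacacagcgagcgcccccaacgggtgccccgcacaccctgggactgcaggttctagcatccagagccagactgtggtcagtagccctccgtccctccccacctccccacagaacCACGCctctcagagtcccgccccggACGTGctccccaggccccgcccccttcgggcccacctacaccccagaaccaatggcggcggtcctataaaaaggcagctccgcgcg
These lie at chr2:71872974-71873273 (Pdk1, plus strand), chr7:138909457-138909756 (Bnip3, minus strand), chr10:59951721-59952020 (Ddit4, minus strand), chr6:82774405-82774704 (Hk2, minus strand) and chr4:119108495-119108794 (Slc2a1, plus strand). The windows of Pdk1, Ddit4, Hk2 and Slc2a1 each held 2 cores and that of Bnip3 held 5, of which 2 formed a CACGTG, a sequence present in 7.15% of all windows. Members that rose and members that fell both carried cores. The single window of Eno2, which rose with density in the labelled WT, held none. A match of letters is a description of the window and does not show that it is bound.

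Between 52.8% and 67.7% of spots were well above background in a channel, and 32 of the 35 members were so in all 8 channels, the exceptions being Aldoc, Car9 and Epas1. Of the 4 Lats2 probes, 3 were higher in the labelled KO at both densities and the remaining one was lower, with values on the log2 scale from -0.63 to 1.39 at low density and from -1.26 to 1.49 at high density, where the remaining probe was called lower, so the genotype is given here as labelled, and whether these probes lie in the deleted part is not given in the sources used here. The WT arrays shared 1 slide and were scanned on the same day, whereas the KO arrays came from 2 other slides scanned about 7 months apart, so slide and genotype cannot be told apart. All 10 fibroblast markers were well above background in every channel, and their summed level, on a log2 scale, was between 18.8 and 19.4. Single fibroblast markers moved within that sum. By genotype, 1 of the 10 was called higher and 3 lower in the labelled KO at low density and 4 higher and 1 lower at high density, and with density 3 were called higher and 3 lower in the labelled WT and 6 higher and 1 lower in the labelled KO. Pdgfra was higher in the labelled KO by 4.46 at low and 3.10 at high density, while Fn1 had -1.30 and 1.33 and Col5a1 had -1.17 and 1.24. The part of these markers in the results below was not tested. Some listed markers of macrophages (Emr1, Ptprc and Tyrobp), endothelium (Pecam1, Cdh5, Tie1 and Emcn) and epithelium (Cdh1, Tacstd1, Krt8 and Cldn4) were not well above background in any channel. Of the other macrophage markers, Cd68, Cd14 and Fcer1g were well above background in all 8 channels and Csf1r and Lyzs in 6, while the endothelial Kdr and Tek and the epithelial Krt18 were so in 1 or 2. The summed level of the 8 macrophage markers was 10.1 to 10.2 in the labelled WT and 10.9 to 12.3 in the labelled KO, where Lyzs was higher by 3.90 at low and 4.75 at high density. These Lyzs values are measured differences and not bounds, and Lyzs was not well above background in every channel. Cd14 was lower in the labelled KO, at -1.80 and -1.59, and the median difference over the 5 macrophage markers tested was 0.02 and 0.14. Without Lyzs, a setting chosen after seeing the data, the summed level was 9.90 to 10.1 in the labelled WT and 9.50 to 9.51 in the labelled KO. The part of these markers in the genotype differences below was not tested. In bulk RNA, fewer cells of a type and less RNA per cell cannot be told apart.

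The first comparison asked how the members differed between high and low density in the labelled WT. The hexokinase Hk2, the glucose transporter Slc2a1 and the pyruvate kinase Pkm2 fell at high density, while Pdk1, Eno2, Ndrg1, Ddit4 and Bnip3 rose. A gene was called when the mean of its arrays passed 2-fold, a log2 size of 1, and its arrays did not differ in sign. Of the 35 members, 8 were called, 5 higher and 3 lower, where 15.5% of the 14879 genes measured were called (9.42% higher and 6.09% lower). With median centring of each array in place of loess the split over all genes moved from 1401 higher and 906 lower to 1129 higher and 1270 lower, and the median of all genes moved from 0.06 to -0.05, so values of this size around 0 carry no direction.

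Among the glycolytic enzymes, 1 was called higher, 2 were called lower and 13 were not called. Hk2, an inducible hexokinase that binds mitochondria, had a log2 normalised intensity of 13.40 on both arrays at low density and of 11.86 and 11.46 at high density in the labelled WT. It fell by 1.74 on the log2 scale (SD 0.28 over 2 arrays), or 3.34-fold, while the constitutive hexokinase Hk1 had a log2 ratio of 0.15. Eno2, the neuronal enolase, went the other way, from 8.53 and 8.45 at low density to 10.14 and 10.25 at high density. Its mean log2 ratio was 1.70 (SD 0.14), and its second probe gave 1.66. Eno1, the ubiquitous enolase, had ratios of -1.05 and -0.77 on the 2 arrays and was not called, so the enolases differed by 2.61 in their log2 ratios. Pkm2, a pyruvate kinase, lay at the threshold with ratios of -1.05 and -0.95, and without the first array its value was -0.95 and it was not called, nor was it with processed signals. Its other probes gave -0.89 and -1.13. Ldha, which turns pyruvate to lactate, had unequal ratios of -0.39 and -1.11 and was not called.

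The remaining enzymes lay within 2-fold. The phosphofructokinases, which commit glucose to glycolysis, were split, with log2 ratios of 0.79 for the muscle form Pfkm, 0.13 for the liver form Pfkl and -0.75 for the platelet form Pfkp. The trunk enzymes Pgam1, Pgk1, Gapdh and Aldoa had log2 ratios of -0.56, -0.40, -0.29 and -0.27, and Gpi1, Aldoc and Tpi1 had -0.13, 0.15 and 0.18. Near-identical copies of Gapdh and of other glycolytic genes exist in the mouse genome, and cross-hybridisation to them was not tested.

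In transport and flux control, Slc2a1, the main glucose transporter of fibroblasts (GLUT1), went from 12.76 and 12.95 at low density to 11.86 and 11.58 at high density. It fell by 1.14 (SD 0.33), and on the first array alone the ratio was -0.90, under the threshold. Pdk1, a kinase that inhibits pyruvate dehydrogenase, went from 7.02 and 6.77 to 9.23 and 8.96. That is a rise of 2.20 (SD 0.01), or 4.59-fold, and its second probe gave 1.58. With the processed signals of the scanner software the rise of Pdk1 was 3.18, above the 2.67 of Ndrg1 on those signals. The bifunctional enzyme Pfkfb3, whose product activates phosphofructokinase, had ratios of -0.99 and -0.81 and was not called. The lactate exporter Slc16a3 had -0.22 on both arrays. It was dim, at 6.71 to 6.99 in the labelled WT channels, though well above background.

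Of the other HIF targets, 3 were called higher and none lower in the labelled WT. Ndrg1, a stress-responsive gene linked to differentiation, went from 9.59 and 9.46 to 12.09 and 12.08, a rise of 2.56 (SD 0.09), or 5.89-fold. Ddit4, an inhibitor of mTORC1 signalling, went from 12.86 and 13.09 to 14.72 and 14.74, a rise of 1.76 (SD 0.14). Bnip3, a receptor for mitophagy, went from 10.03 and 10.14 to 11.27 and 11.06. Its rise of 1.08 (SD 0.23) came to 0.92 on the second array alone, and it was 0.89 with median centring. In all 3 genes the high density channels lay above the low density channels.

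The other members of this group moved less. The vasodilator peptide Adm had a log2 ratio of -0.81, Ankrd37 had -0.63 and Higd1a, a mitochondrial protein, had 0.46, while its dimmer probe, at 1.68, was past the threshold. The prolyl hydroxylases Egln3 and Egln1 had -0.38 and -0.05, and the collagen prolyl hydroxylase subunits P4ha1 and P4ha2 both had -0.13. Vegfa, the main angiogenic growth factor, had ratios of 0.10 and -0.43, which differ in sign between the dyes, and its other probes gave -0.90 and -0.89. Car9, a carbonic anhydrase often used as a hypoxia marker, was not well above background at low density and was at least 1.19-fold higher at high density. Among the transcription factors, Arnt had 0.87, Hif1a had 0.27 and Epas1 had -0.14, none called. The dimmer probes of Arnt gave -0.04, 0.04 and 0.37.

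**Figure D1:**
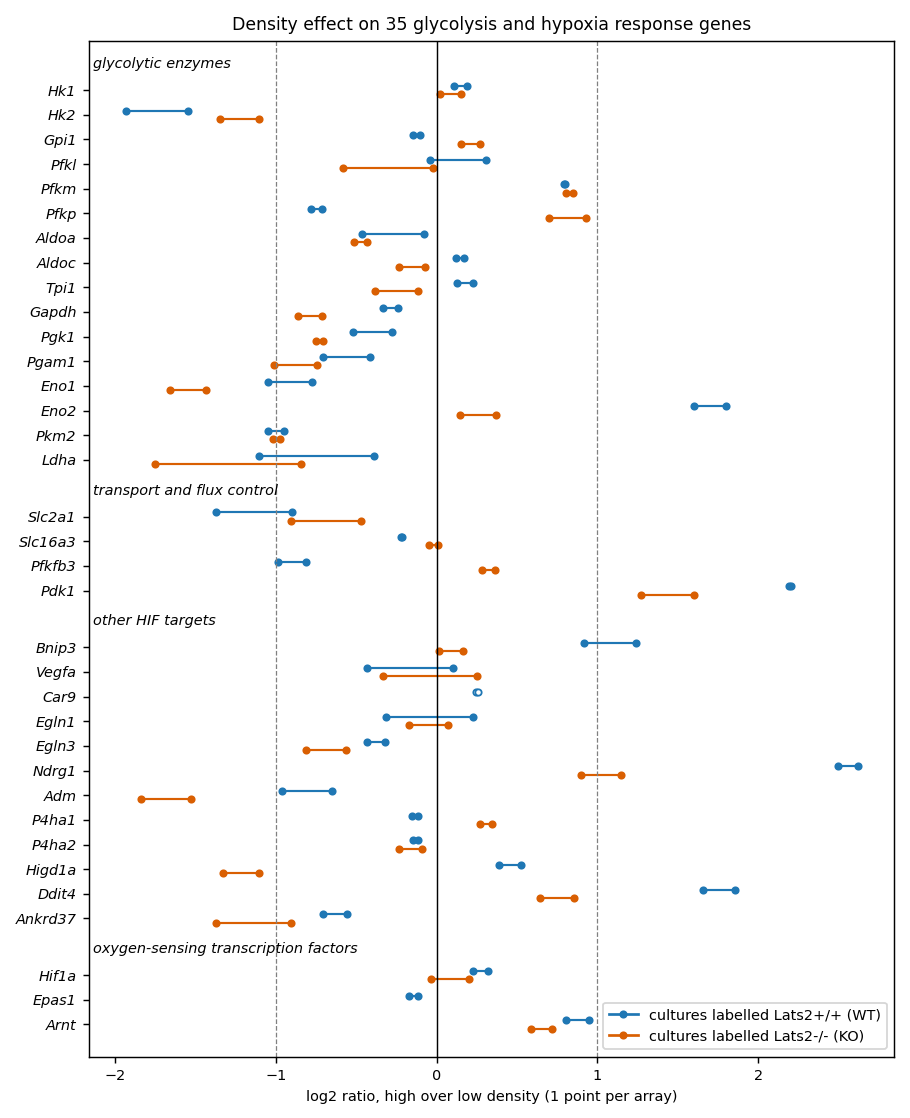
Log2 ratio of high over low density for each member (vertical axis, by role), with 1 point per array joined by a line, for the labelled WT (blue) and the labelled KO (orange); dashed lines mark 2-fold, an open point is a gene not well above background at one density, and genes that failed the background filter are left out. Hk2 lies left of -1 and Pdk1 right of 1 in both genotypes, and Higd1a, Pfkp and Pfkfb3 lie on opposite sides of 0.

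The same comparison was made in the labelled KO, where Hk2, Eno1, Ldha, Adm, Higd1a and Ankrd37 fell and Pdk1 and Ndrg1 rose. Here 33 members were measured (Car9 and Epas1 failed the background filter at both densities) and 8 were called, 2 higher and 6 lower, where 11.0% of 15444 genes were called (7.16% higher and 3.87% lower). With median centring, the split over all genes was 801 higher and 1070 lower in place of 1106 higher and 598 lower.

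Of the enzymes, 3 were called, each lower, and with median centring in place of loess 7 were called lower. Hk2 went from 10.79 and 11.00 at low density to 9.68 and 9.66 at high density, a fall of 1.23 (SD 0.17). Eno1 went from 10.06 and 9.82 to 8.40 and 8.39, a fall of 1.55 (SD 0.16) or 2.92-fold. Ldha went from 14.92 and 15.32 to 14.07 and 13.57, and the spread was wide, with ratios of -0.84 on the first array and -1.75 on the second. The mean for Ldha was -1.30, without the second array it was not past the threshold at -0.84, and its other probe gave -1.23. With median centring it was -1.89. Pkm2, at -0.998 just under the threshold, and Pgam1, at -0.88, were not called, and with median centring they had -1.44 and -1.52. Gapdh and Pgk1 had -0.79 and -0.73, and Pfkm and Pfkp had 0.82 and 0.81.

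Pdk1 rose by 1.44 (SD 0.23) in the labelled KO, from 8.48 and 8.79 to 10.08 and 10.06. Its second probe gave 0.43, and the mean of both probes, 0.93, was not called. Ndrg1 rose by 1.02 (SD 0.18), from 9.30 and 9.12 to 10.20 and 10.27, and the value was 0.90 with the first array alone and 0.85 with median centring, both under the threshold. Slc2a1 had a log2 ratio of -0.69, Ddit4 of 0.75, Eno2 of 0.26 and Bnip3 of 0.09, none called.

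The members called lower among the other HIF targets were Adm, Higd1a and Ankrd37. Adm went from 12.32 and 12.49 to 10.79 and 10.65, a fall of 1.68 (SD 0.22) or 3.21-fold. Higd1a went from 12.75 and 12.42 to 11.65 and 11.09, a fall of 1.22 (SD 0.16), but its dimmer probe gave 0.72, so the direction of this gene depends on the probe. Ankrd37 fell by 1.14 (SD 0.33), with a ratio of -0.91 on the second array, and it was -1.88 with the processed signals. Arnt and Hif1a had log2 ratios of 0.65 and 0.08.

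The density effects of both genotypes were then set side by side. Of the 33 members measured in both, Hk2, Pdk1 and Ndrg1 were called in both, each in 1 direction, which is 37.5% of the 8 members called in each genotype. Over all genes measured in both, 815 were called in both in 1 direction, or 37.4% of those called in the labelled WT and 50.9% of those called in the labelled KO. The signs agreed in 25 of 33 members (75.8%), and over all 14169 genes measured in both they agreed in 74.4%. Pearson's r between the genotypes was 0.71 over the 33 members and 0.63 over all genes, given as a description, since genes are not replicates and each value rests on 1 sample per genotype and density.

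**Figure D2:**
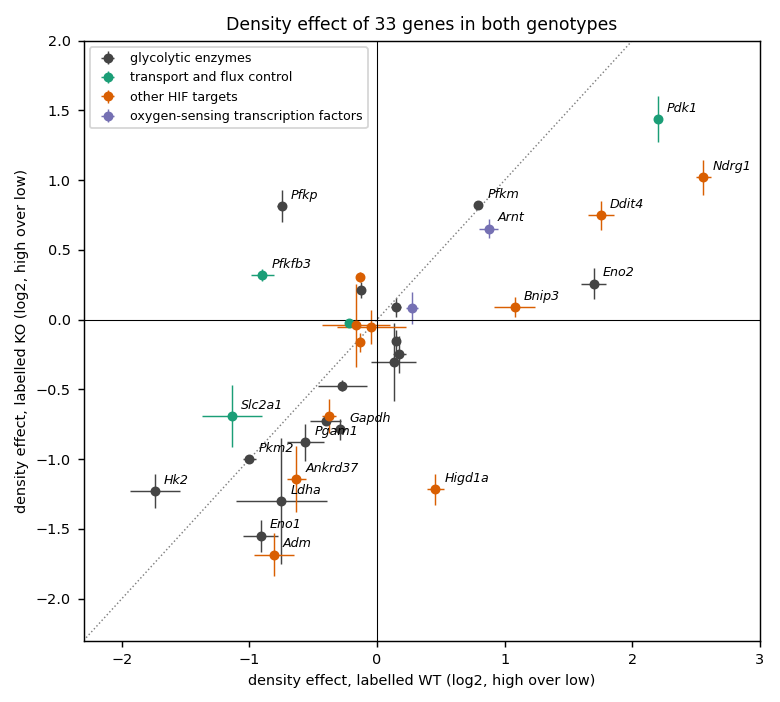
Mean log2 ratio of high over low density in the labelled WT (horizontal axis) and the labelled KO (vertical axis) for the 33 members measured in both, coloured by role; bars span both arrays and the dotted line marks equal effects. Ndrg1, Pdk1, Ddit4, Eno2 and Bnip3 lie right of the line, and Pfkp, Pfkfb3 and Higd1a lie in quadrants of opposite sign.

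The difference of the density effects, labelled KO minus labelled WT, was called for 6 of the 33 members, 2 higher and 4 lower, where 9.53% of 14169 genes were called (4.55% higher and 4.98% lower). The members lower were Ndrg1 at -1.54 (SD 0.09), Eno2 at -1.44 (SD 0.02), Ddit4 at -1.01 (values of -1.01 in both dye orientations, and -0.90 without the second KO array) and Higd1a at -1.67 (SD 0.25). The probes of Higd1a differed, since its dimmer probe gave -0.95, which was not called. The dimmer probe of Pdk1 gave -1.15, past the threshold, where its brighter probe had -0.76. Both probes of Eno2 gave this difference, the second at -1.42. Bnip3, at -0.99, stood just under the threshold, and Ddit4 was not called with an offset of 16. This difference equals the genotype difference at high density minus that at low density, so it shares all channels with the comparisons that follow.

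Higher by this measure were Pfkp at 1.56 (SD 0.11) and Pfkfb3 at 1.22 (SD 0.07). In the labelled WT, Pfkp read 9.40 and 9.30 at low density and 8.62 and 8.59 at high density, and in the labelled KO it read 10.07 and 9.85 at low density and 10.77 and 10.78 at high density. All 4 labelled KO channels lay above all 4 labelled WT channels, by more at high density. Its other probes gave differences of 0.88 and 0.61. Pfkfb3 read 10.35 and 10.27 at low density in the labelled WT and 9.37 and 9.46 at high density, against 10.20 and 10.12 and then 10.48 on both arrays in the labelled KO. The low density channels lay close together and the high density channels did not.

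**Figure D3:**
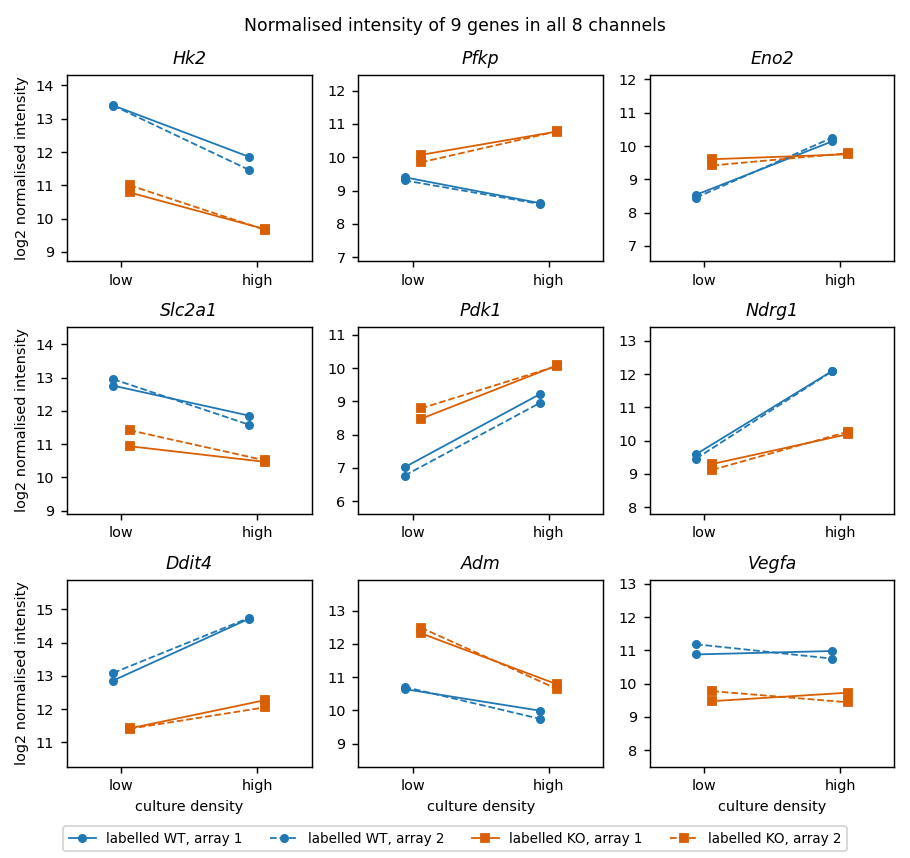
Log2 normalised intensity (vertical axis, the same span in every panel) of 9 members at low and high density in all 8 channels; blue circles are the labelled WT, orange squares the labelled KO, solid lines the first array and dashed lines the dye-swapped array of a genotype. Hk2, Slc2a1, Vegfa and Ddit4 lie lower in the labelled KO at both densities, and Pfkp and Pdk1 lie higher.

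The next comparison set the genotypes against each other at low density, within each dye. Hk2, Slc2a1, Vegfa and Ddit4 were lower in the labelled KO, and Pdk1, Adm and Eno2 were higher. Of 34 members measured (not Car9), 8 were called, 3 higher and 5 lower, where 15.7% of 15253 genes were called (7.31% higher and 8.37% lower). Without scaling between arrays the split over all genes turned from 1115 higher and 1276 lower to 1788 higher and 800 lower, with the median of all genes at 0.27 in place of 0.03, so each value is read relative to that shift.

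At low density the Hk2 channels of the labelled KO (10.79 and 11.00) lay below those of the labelled WT by 2.50 (SD 0.16), or 5.67-fold, and those of Slc2a1 (10.94 and 11.42, against 12.76 and 12.95) by 1.68 (SD 0.20). Vegfa had -1.40 and -1.41 in the 2 dye orientations, and its other probes gave -1.86 and -0.75. Ddit4 was lower by 1.56 (SD 0.17). These 4 genes were called under each alternative for this comparison.

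Epas1, the HIF-2 alpha subunit, was measured in the labelled WT at 8.82 and 7.41, which differ widely between the arrays, and was not well above background in any labelled KO channel. It was at least 4.15-fold lower in the labelled KO at low density and at least 3.76-fold lower at high density. The 2 dye orientations gave unequal values: the measured differences were -3.04 and -1.26 at low density and -2.71 and -1.18 at high density, and in the second orientation alone, a setting chosen after seeing the data, the bounds were 2.39-fold and 2.16-fold. Its other probe was dim in both genotypes. Epas1 passed the background filter only through the labelled WT, and its call was lost at both densities when every channel had to be well above background.

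Pdk1 was higher in the labelled KO by 1.74 (SD 0.40), or 3.33-fold, and its second probe gave 1.43, while the processed signals gave 2.64. Adm was higher by 1.73 (SD 0.07), with 12.32 and 12.49 against 10.64 and 10.71. Eno2 was just past the threshold at 1.02, with 1.07 in the first dye orientation and 0.97 in the second, and its second probe, at 0.93, was not, nor was the gene under quantile scaling of the single channels. Eno1 and Pfkl had differences of -0.66 and -0.70, and Hif1a and Arnt of -0.03 and 0.05, none called.

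At high density more members were called, and most of them were lower in the labelled KO. Of 35 members measured, 13 were called, 2 higher and 11 lower, where 14.5% of 15617 genes were called (6.74% higher and 7.79% lower). Without scaling between arrays the split over all genes was 1690 higher and 849 lower in place of 1052 and 1217. The 11 lower members were 3 enzymes (Hk2, Pfkl and Eno1, where 5 enzymes were called lower with median centring), the transporter Slc2a1, 6 other HIF targets (Bnip3, Vegfa, Ndrg1, Higd1a, Ddit4 and Ankrd37) and Epas1, which passed the background filter through the labelled WT alone.

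Ddit4 was lower by 2.57 (SD 0.17), or 5.92-fold, with 12.27 and 12.06 in the labelled KO against 14.72 and 14.74 in the labelled WT. Hk2 was lower by 1.99 (SD 0.26) and Ndrg1 by 1.85 (SD 0.06), the latter with 10.20 and 10.27 against 12.09 and 12.08. Ndrg1 had differed by -0.31 at low density, where the channels of both genotypes lay between 9.12 and 9.59. Higd1a had a difference of -1.39 (SD 0.43), and its dimmer probe had -0.75. Bnip3, Eno1 and Vegfa were lower by 1.33, 1.30 and 1.28, and Slc2a1 and Pfkl by 1.23 and 1.13, the last pair with no call when arrays were not scaled to each other. Ankrd37, at -1.02, was -0.94 in the second dye orientation, and it was not called with median centring, quantile scaling or no scaling between arrays, whereas it was -1.70 with the processed signals.

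Pfkp was higher in the labelled KO at high density by 2.17 (SD 0.02), or 4.49-fold, and its other probes gave 2.13 and 1.04. Pfkfb3 was higher by 1.07 (SD 0.07). Pdk1, at 0.97, and Adm, at 0.85, were not called at this density, and the dimmer probe of Pdk1 gave 0.28. Ldha, Tpi1, Gapdh and Pgk1 had differences of -0.95, -0.89, -0.82 and -0.72, and the second probe of Ldha, at -1.16, passed the threshold. Hk2, Slc2a1, Vegfa, Ddit4 and Epas1 were called at both densities, each of them lower in the labelled KO. They were 62.5% of the members called at low and 38.5% of those called at high density among the members measured at both. Over all genes these shares were 50.2% and 55.1%, and the 2 comparisons share their arrays. Epas1 is counted in these shares, though it passed the background filter only through the labelled WT.

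**Figure D4:**
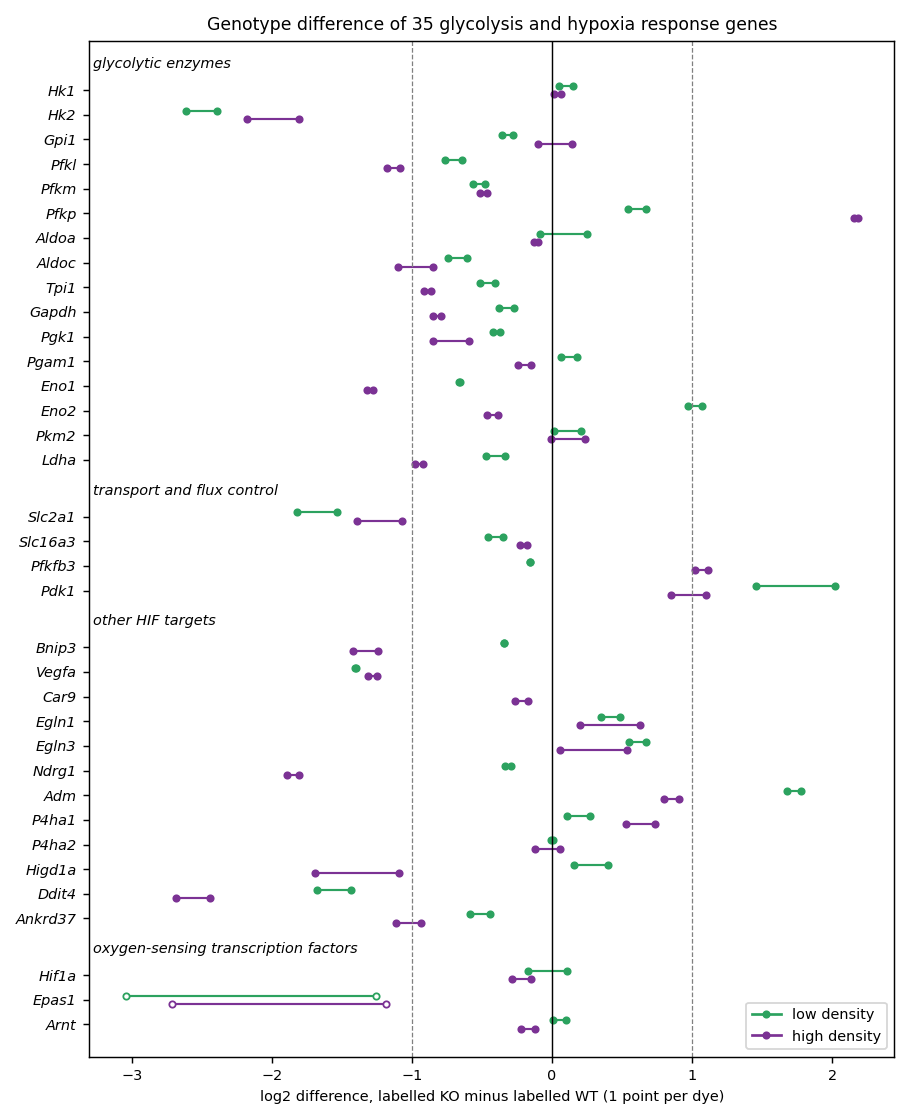
Log2 difference, labelled KO minus labelled WT, for each member (vertical axis, by role) at low (green) and high density (purple), with 1 point per dye joined by a line; dashed lines mark 2-fold, and open points mark genes not well above background in one genotype, drawn at the measured difference and not at the bound. At high density 11 members were called lower and Pfkp and Pfkfb3 higher.

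Glycolytic enzymes were then compared with the other HIF targets, to ask whether both arms of the programme moved alike. The genes of transport and flux control (Slc2a1, Slc16a3, Pfkfb3 and Pdk1) were in neither group, and the medians depend on that assignment. In the labelled WT the median log2 ratio was -0.28 over the 16 enzymes and -0.09 over the 12 other HIF targets, beside 0.06 over all genes. The HIF targets spread more widely upward, from -0.81 to 2.56 with a mean of 0.32, and their median was 0.16 on one array and -0.15 on the other. In the labelled KO the medians were -0.39 over the enzymes and -0.05 over the 11 HIF targets measured, beside 0.06 over all genes. HIF targets minus enzymes came to 0.19 in the labelled WT (0.36 without the second array) and 0.34 in the labelled KO (0.73 with median centring, and 0.14 without the first array). As a difference of means, a setting chosen after seeing the data, it was 0.55 in the labelled WT and 0.15 in the labelled KO, so the order of the genotypes turned. With median centring the enzyme median was -0.56 in the labelled WT and -1.002 in the labelled KO, and that of the HIF targets was -0.28 and -0.27, beside -0.05 and -0.08 over all genes.

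For the difference of density effects, the median was -0.31 over the enzymes and -0.51 over the HIF targets, beside 0.02 over all genes, and 11 of 16 enzymes and 9 of 11 HIF targets were below 0. HIF targets minus enzymes was -0.20, it was -0.64 with the scanner software's processed signals and it turned to 0.07 with median centring, so no order of these groups is given. At low density the genotype difference had a median of -0.36 over the enzymes and 0.00 over the HIF targets. At high density it was -0.61 over the enzymes and -0.62 over the HIF targets, beside 0.03 over all genes, and 12 of 16 enzymes and 8 of 12 HIF targets lay below 0. HIF targets minus enzymes at high density was -0.01, but -0.57 with processed signals and -0.53 when a gene had to be well above background in every channel. The enzyme median was negative in all 5 comparisons under each scaling that was tried. The comparisons are built from the same channels, so these are not separate results.

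**Figure D5:**
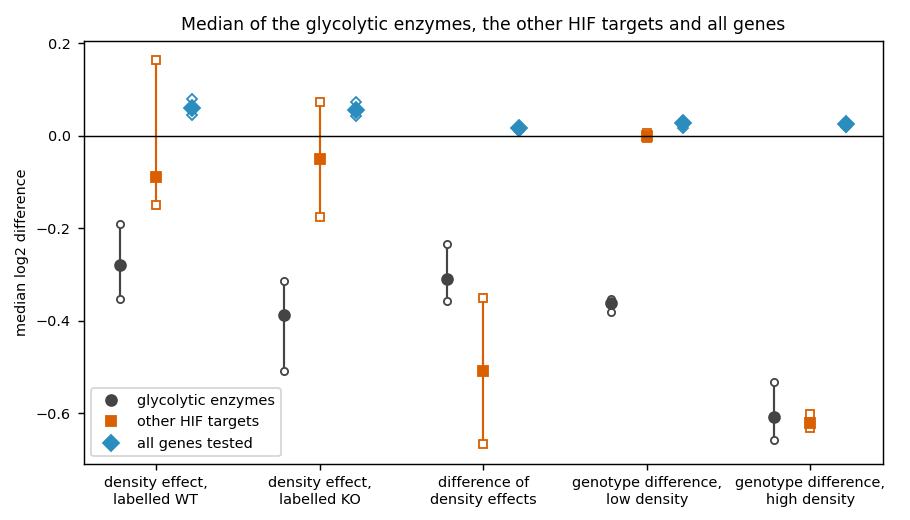
Median log2 difference (vertical axis) of the glycolytic enzymes (circles), the other HIF targets (squares) and all genes tested (diamonds) in the 5 comparisons; filled symbols are medians of the mean values, open symbols those of each array or dye orientation. The enzyme medians lie below those of all genes throughout, and at high density the HIF targets lay at -0.62 against -0.61.

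Further genes of the same pathways, from lists of the pathways' known genes, gave a wider view. Of 25 further glycolysis and pyruvate genes measured in the labelled WT, 3 were called higher and 2 lower, and of 23 measured in the labelled KO none was called higher and 2 were called lower, where 15.5% of all genes were called in the labelled WT and 11.0% in the labelled KO. Ldhb, the heart form of lactate dehydrogenase, had a log2 ratio of 2.33 in the labelled WT and of 0.94 in the labelled KO, while Ldha had -0.75 and -1.30. Eno3, the muscle enolase, fell in both genotypes, by 1.93 and 1.99. Pfkfb2 had 1.12 and 0.95, and the pyruvate carboxylase gene Pcx had 1.12 and -0.05. Of the pyruvate dehydrogenase complex, Pdha1 had -0.20 and -1.30 and Dlat had -1.06 and -0.91. By genotype, 2 of 24 further glycolysis and pyruvate genes were called higher and 1 lower in the labelled KO at low density (median 0.06). At high density 2 of 25 were called higher and 4 lower (median -0.10). The 16 enzymes had medians of -0.36 and -0.61, and 15.7% and 14.5% of all genes were called.

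Among 31 further HIF targets and regulators measured in each genotype, 4 were called higher and 5 lower in the labelled WT, and 5 higher and 5 lower in the labelled KO, against the same 15.5% and 11.0% of all genes. The transferrin receptor Tfrc fell by 1.41 in the labelled WT and 3.05 in the labelled KO. The endoplasmic reticulum oxidase Ero1l had -1.22 and -1.15 and the VEGF receptor Flt1 fell by 1.19 and 2.20. Vhlh, which encodes the von Hippel-Lindau protein that targets HIF alpha subunits, rose in both, by 1.07 and 1.11, and so did Rora, by 1.84 and 1.11. Bnip3l, a relative of Bnip3, had 1.23 and 0.19, and Angptl4 had 1.04 and 0.09. Cited2, a competitor of HIF for its coactivator, had 0.43 in the labelled WT and fell by 2.24 in the labelled KO. Igfbp3 was not well above background in the labelled WT at either density and rose by 3.68 in the labelled KO, where it was at least 19.8-fold higher at low and at least 245-fold higher at high density. Mxi1 and Ccng2 rose by 1.23 and 1.07 in the labelled KO and had 0.74 and 0.91 in the labelled WT. Endothelin (Edn1), not well above background in the labelled WT at high density, was at least 2.69-fold lower there than at low density. By genotype, 8 of 31 further HIF targets and regulators were called higher and 2 lower in the labelled KO at low density (median 0.22). At high density 5 of 32 were called higher and 3 lower (median 0.02). The 12 other HIF targets among the members had 0 higher, 6 lower and a median of -0.62 there. Over all genes 15.7% were called at low and 14.5% at high density.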

How the data were processed

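Two-colour Agilent whole mouse genome arrays (4 arrays, 43379 features outside the controls, 41174 probes) were scanned and extracted by the authors with Agilent Feature Extraction 10.5.1.1, per the file headers. The deposited scanner files hold linear intensity values per spot (mean signal, local background and processed signal), a log10 ratio of Cy5 over Cy3, and quality flags (other units) set by the software. The deposited value table holds log10 ratios of high over low density, with the dye-swapped arrays' sign turned by the authors, and it differed from the scanner files' log10 ratio by at most 0.00499. Columns of the authors' own comparisons were not used.

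Mean signals were background-corrected with normexp (offset 50), normalised by loess within each array with controls at weight 0, and scaled between arrays with Aquantile, so that each single channel has a log2 normalised intensity (limma 3.58.1 in R 4.3.3; Python 3.11.15 with pandas 2.3.3). Outlier-flagged spots were dropped and spots of a probe averaged, and a probe was well above background in a channel when at least 0.5 of its spots were. A density ratio was kept if the probe was well above background on both arrays of at least 1 density, and a genotype difference if it was so in both dyes of at least 1 genotype. A gene took its probe with the highest mean log2 intensity over all arrays. A call needed a mean past 2-fold with no disagreement in sign between arrays or dyes.

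A bound ("at least N-fold") set the brighter group's mean against, per array, the higher of the dim probe's signal and the lowest signal among probes well above background. The SD between arrays or dyes, over all genes tested, was between 0.144 and 0.204 on the log2 scale. Precision is limited by having 4 arrays. The methods' t-test could not be run with 1 replicate per group. Alternatives were processed signals, median centring, an offset of 16, other filters, a 1.4-fold threshold, the mean of a gene's probes, other scalings, the deposited log10 ratios, and leaving out each array. The calculation of calls was tested on simulated data. Probe positions follow build mm8 and are not printed; promoter windows come from RefSeq's GRCm38.p6 table. All 35 members are named, with Lats2, marker genes and further pathway genes that passed 2-fold in a density comparison, apart from 1 gene that is not reported here. Members, lists and rules were chosen with earlier results of these data known.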

Additional observations from a re-analysis of the deposited data

Results flagged for a closer look

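In 7 of the 33 members measured in both genotypes, both arrays of the labelled WT went one way with density and both arrays of the labelled KO went the other way, which is 21.2% of them, beside 15.2% of the 14169 genes measured in both; the difference of the density effects was not tested in any of them, since each genotype had 1 sample per density. Higd1a had a difference (labelled KO minus labelled WT, log2) of -1.67, from 0.46 in the labelled WT and -1.22 in the labelled KO on its brightest probe, whereas its dimmer probe was above 0 in both genotypes. Pfkp differed by 1.56, from -0.75 and 0.81, and its other probes had the same opposite signs. Pfkfb3 differed by 1.22, from -0.90 and 0.32. The remaining 4 were small. P4ha1 differed by 0.44, Gpi1 by 0.34, Tpi1 by -0.42 and Aldoc by -0.30, none of them called in either genotype, and Aldoc was not well above background in 1 of its labelled KO channels.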

How the results depend on the processing

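The arrays allow no estimate of biological spread. Over the 5 comparisons, members received 43 calls, of which 28 held under every alternative and 15 were lost under at least 1. Of 1796 member values recomputed under alternatives, 1506 moved by less than the SD between arrays or dyes, 290 by more, and 0 called values changed sign. Part of the 1506 could not move. The background filters change which genes are kept and not their values, and a gene with 1 probe keeps its value under the mean of probes. Some alternatives also repeat each other, such as the deposited ratios and the processed signals. The 1506 therefore overstate how stable the values are. Aldoc, Car9 and Epas1 were not well above background in every channel. Density was compared within each array, and arrays of the genotypes were matched by dye orientation. Replicate numbers only follow accession order and mark dye orientation, so no pairing of cultures between genotypes was possible. The number of genes called moved by more than 1.5 times with processed signals of the scanner software, to 3952 and 3220 for density in the labelled WT and KO (2307 and 1704 as reported), 2262 for the difference of density effects (1350), and 4189 and 3952 for genotype at low and high density (2391 and 2269), with deposited log10 ratios to 3947, 3214 and 2260 for the density comparisons, and with a 1.4-fold threshold to 6113, 5673, 4457, 6501 and 6155 in the same order. Leaving out each array gave 2346 to 2359, 1799 to 1845, 1385 to 1484, 2438 to 2539 and 2216 to 2589. Other HIF targets minus glycolytic enzymes went from 0.34 to 0.73 with median centring for density in the labelled KO. For the difference of density effects it went from -0.20 to -0.64 with processed signals, -0.64 with deposited ratios and -0.42 with offset 16, and turned to 0.0731 with median centring. For genotype at high density it went from -0.01 to -0.57 with processed signals, -0.24 with offset 16 and -0.53 with the filter for every channel. Leaving out each array gave 0.20 to 0.36 in the labelled WT, 0.14 to 0.57 in the labelled KO, -0.407 to -0.0443 for the difference, 0.36 to 0.39 at low density and -0.07 to 0.02 at high density. As a difference of means, chosen after seeing the data, it was 0.55 in the labelled WT, 0.15 in the labelled KO, -0.41 for the difference, 0.22 at low and -0.15 at high density. The cause of these moves was not tested.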
